A study of Mus musculus with 6 samples.

Results

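Psg16, Psg17, Psg18 and Psg19 are 4 pregnancy-specific glycoprotein genes of mouse chromosome 7 that lie on the centromeric side of Gipr, the gene inactivated in the animals studied here. They were followed through every non-control probe that the array files name for them, which gave 5 of the 55681 probes on the array and 4 of its 34787 named genes and transcripts. The choice was made with the knockout and wild-type values of these same arrays known, so the differences of the 4 genes between genotypes are given as descriptions, without a test. Of the 5 probes, 3 had enough signal to enter the fit over all probes, those of Psg17, Psg18 and Psg19. They entered it through their wild-type signal, as all 3 read well above background on every wild-type array, and only the Psg19 probe did so on every knockout array.

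The knockout group consisted of 3 Gipr knockout mice (labelled GIPR KO) and the control group of 3 wild-type mice, with the strain given as C57BL/6 and the age as 8 weeks in both. Gipr encodes the receptor for the gut hormone glucose-dependent insulinotropic polypeptide. RNA of the whole testis, a mixture of germ cells and somatic cells, was hybridised to 1 array per sample. How the Gipr allele was made, the breeding of the line and any littermate relation between the groups are not given in the sources used here.

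Between 70.6% and 76.0% of the non-control spots of an array were well above background as the scanner software defines it, and 0 were saturated. All 6 arrays lay on 1 slide, with the knockout samples in row 1 and the wild-type samples in row 2, so that the row on the slide and the genotype cannot be told apart. In whole-tissue RNA, fewer cells of a type and less RNA per cell cannot be told apart either.

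Pregnancy-specific glycoproteins are secreted members of the immunoglobulin superfamily and belong to the same family as the carcinoembryonic antigen-related adhesion molecules, encoded by the Ceacam genes. Placental trophoblast secretes them in large amounts during pregnancy, and they are studied for their actions on immune cells, on transforming growth factor beta and on blood vessel growth. In the mouse the Psg genes form a tandem cluster on proximal chromosome 7, interspersed with Ceacam genes and made of closely similar copies. Psg17 is known to bind the tetraspanin Cd9 on macrophages, and an isoform of Psg16 is known from brain.

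Because the copies are so alike, the 60-base probe sequences were compared with those of the other Psg and Ceacam probes. They are printed 5′ to 3′ as the files give them, and capitals mark the longest run of bases that the probe shares with another Psg or Ceacam probe of the array.
Psg16, probe A_51_P153042: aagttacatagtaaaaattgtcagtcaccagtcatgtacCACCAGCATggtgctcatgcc
Psg16, probe A_55_P2038318: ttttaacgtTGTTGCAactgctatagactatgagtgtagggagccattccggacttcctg
Psg18, probe A_55_P2024868: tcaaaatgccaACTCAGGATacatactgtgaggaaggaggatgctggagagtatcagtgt
Psg19, probe A_55_P2024041: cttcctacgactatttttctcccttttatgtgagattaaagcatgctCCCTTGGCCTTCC
Psg17, probe A_55_P2109782: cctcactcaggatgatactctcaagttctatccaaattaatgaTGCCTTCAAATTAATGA
The nearest relatives of the Psg17 and Psg19 probes were those of Psg26 and Psg22, shown for comparison with the same marking.
Psg26, probe A_55_P2067752: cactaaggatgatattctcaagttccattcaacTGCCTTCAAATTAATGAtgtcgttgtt
Psg22, probe A_55_P2051721: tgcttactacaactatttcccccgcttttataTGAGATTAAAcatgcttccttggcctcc

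The Psg17 probe shared a run of 17 bases with the Psg26 probe, and 45 of its 60 bases were identical when the pair was aligned. The Psg19 probe shared a run of 13 bases with the Psg21 probe and a run of 10 bases with the Psg22 probe, with 50 of 60 bases identical to the latter in the alignment. The longest run of the Psg18 probe was 9 bases, shared with the Psg17 probe, and those of the Psg16 probes were 9 bases with a Ceacam20 probe and 7 bases with the Psg-ps1 probe. Outside the family, the Psg19 probe shared 15 bases with a Phf24 probe and the Psg17 probe 17 bases with a Slc6a18 probe. Probes were compared only with other probes, which can lie at other places of their transcripts, and not with whole transcripts. Transcripts of other Psg copies, with or without a probe of their own, could therefore also bind these probes. Each reading is tied to its gene only as far as the array's design names it.

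On build mm9, per the file headers, the Psg16 probes lay on the plus strand at chr7:17683714-17683774 and chr7:17718517-17718576. The probes of Psg18 (chr7:18931259-18931318), Psg19 (chr7:19375143-19375202) and Psg17 (chr7:19399337-19399396) lay on the minus strand. The starts of their alignments in the transcripts, as the files give them, were base 1495 for Psg18, 1818 for Psg19 and 1973 for Psg17. Exon and UTR boundaries on this build were not used here. Counted to the Gipr probe (chr7:19742486-19742545), Psg17 was 343 kb away, Psg19 367 kb, Psg18 811 kb, and the Psg16 probes 2024 and 2059 kb. The 4 genes are therefore spread over much of the Psg cluster, and other Psg genes lie between them.

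Psg19 had the largest difference with readings above background in both genotypes. Its processed signal, the intensity of its spot after background subtraction, on a linear scale, measured 13.3, 15.0 and 16.8 on the knockout arrays and 347, 344 and 339 on the wild-type arrays. All 6 readings were well above background, and the groups were far apart. On the log2 scale relative to the 75th percentile of each array, the scale of all log2 values below, Psg19 read -5.76 ± 0.19 in knockout testes and -1.22 ± 0.05 in wild-type testes (SD, n = 3 each). The knockout was lower by 23.2-fold, a log2 difference of -4.54 with a moderated standard error (SE) of 0.11.

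Psg18 had signal in the wild type only. The processed signal of its probe measured 7.20, 6.30 and 4.995 in the knockout, where no array read it well above background, and 81.3, 97.3 and 94.4 in the wild type, where all 3 did. The scanner software's own error of the knockout readings was between 1.87 and 2.26, so these values are within a few errors of 0. The measured log2 means were -7.05 ± 0.27 and -3.14 ± 0.13 (SD, n = 3 each). Since the knockout level is only a bound, no exact size of the difference is claimed. The fitted log2 differences of Psg18 given below rest on that bound. The fold was taken against the lowest signal that counted as well above background on each array, which puts the knockout 9.81-fold lower. A brighter spot can still fail to count, as Psg17 did at 13.97 on knockout array 3. This fold is therefore not a strict minimum.

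Psg17 was lower in the knockout by less than the other pair. On the linear scale it read 11.8, 16.5 and 13.97 on the knockout arrays, the last of them not well above background, and 29.4, 35.6 and 55.2 in the wild type. The wild-type readings were spread more widely than those of Psg19, with replicate 3 the highest, but the lowest of them was above every knockout reading. The log2 means were -5.86 ± 0.31 and -4.37 ± 0.44 (SD, n = 3 each), a difference of -1.49 (SE 0.25) or 2.80-fold.

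Psg16 had little or no signal. Its probe A_51_P153042 read 7.71, 6.81 and 7.62 in knockout testes and 10.6, 9.85 and 7.30 in wild-type testes, and was not well above background on any array. The other Psg16 probe read 10.2, 2.23 and 7.15 in knockout testes and 6.36, 3.29 and 13.2 in wild-type testes, and passed the background limit only in knockout replicate 1 and wild-type replicate 3. The groups overlapped at both probes, neither was tested, and no fold is given. A probe named Gm4055, on chromosome X, also lists a Psg16 accession. It read 535, 470 and 614 in the knockout against 484, 518 and 471 in the wild type, and did not pass (log2 difference 0.11, 95% confidence interval -0.13 to 0.35, limma adjusted p = 0.762).

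**Figure D1:**
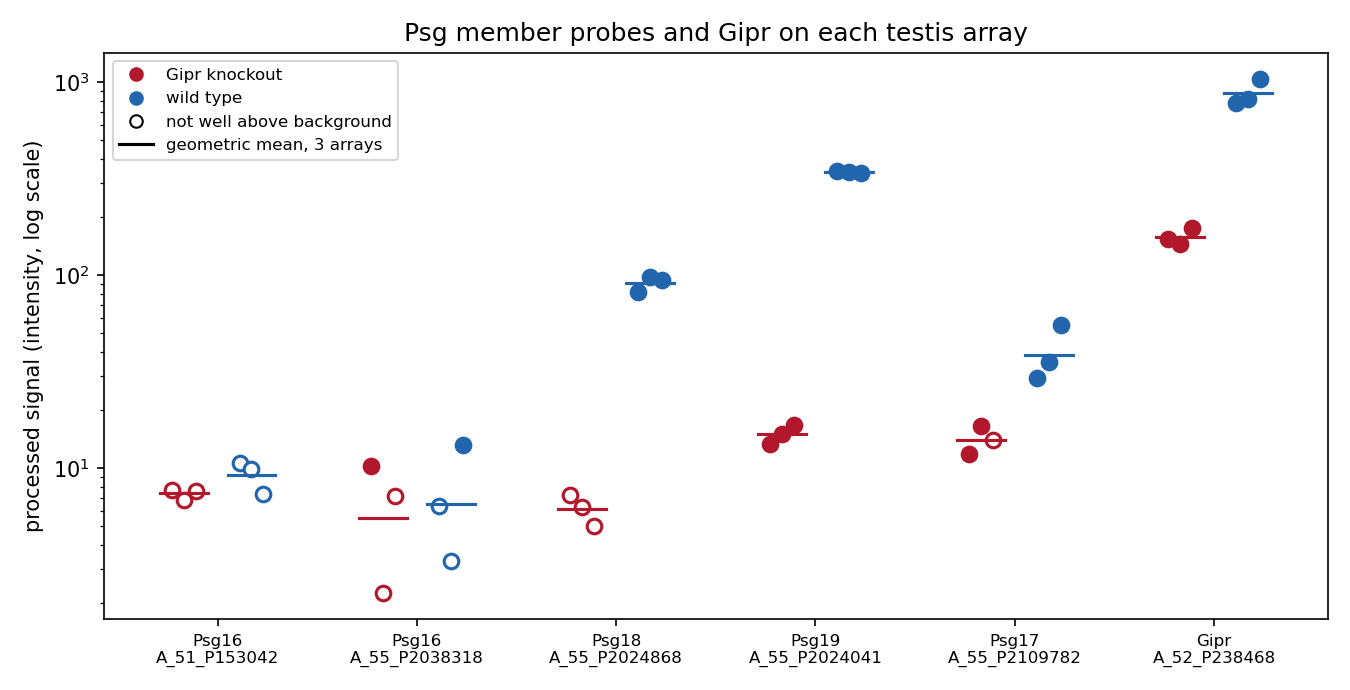
Processed signal (linear intensity drawn on a log axis) of the 5 Psg16, Psg17, Psg18 and Psg19 probes and the Gipr probe, each point 1 array and each bar the geometric mean of the 3 arrays of a genotype, with open points not well above background. Wild-type points of Psg19 sit between 339 and 347 and of Psg18 between 81.3 and 97.3, far above their knockout points, while the Psg16 points of the genotypes overlap.

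The knockout and wild-type values did not overlap for the 3 tested genes. Of the 38884 tested probes, 6.08% had groups that did not overlap with the knockout lower and 7.13% with the knockout higher, so separated groups alone are common on these arrays. The size of the differences is rarer: 78 tested probes (0.201%) were at least 2-fold lower in the knockout, Psg17, Psg18 and Psg19 among them. These shares come from the contrast that chose the genes and describe it only. The sizes depend on how background is removed. With normexp correction of the mean spot signals (offset 50) the log2 difference was -2.41 for Psg19 (in place of -4.54). It was -0.42 for Psg17 (in place of -1.49). For Psg18 it was -1.33, in place of a fitted -3.91 that rests on a knockout level below the background limit.

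The targeted gene itself was lower in all 3 knockout samples. At the Gipr probe the processed signal was 155, 145 and 176 in knockout testes and 782, 820 and 1043 in wild-type testes, and all readings were well above background. The groups did not overlap, and the log2 difference was -2.49 (SE 0.12, limma adjusted p = 0.00309). Without knockout replicate 2 the adjusted p was 0.063, the highest over all alternatives, which ranged down to 4.88e-06.

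The other Psg genes were the closest comparison, and none of them passed the test. Outside the 4 genes the array holds 12 probes for 10 Psg genes, of which 6 probes for 6 genes were tested. In limma's fit 0 of the 6 passed at an adjusted p under 0.05, against 18 of all tested probes (0.0463%), 16 with the knockout lower (0.0411%) and 2 with it higher (0.00514%), and 0 had an unadjusted p under 0.05. For 2 of them the knockout was lower and for 4 higher, with a median log2 difference of 0.09 beside 0.003 over all tested probes, and in each case the genotypes overlapped.

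Psg23, known for effects on growth factor release, gave a steady signal of 5214, 4421 and 4726 in knockout testes and 4667, 4689 and 5866 in wild-type testes. Its difference was -0.10 (95% confidence interval -0.32 to 0.13, limma adjusted p = 0.788), so the interval leaves no room for a difference of the size seen at Psg17. The Psg23 probe was not compared with probes outside the family. Psg21 read 19.6, 15.7 and 17.3 in knockout testes and 16.4, 16.3 and 15.99 in wild-type testes, a difference of 0.09 (interval -0.09 to 0.26, limma adjusted p = 0.752). The genotypes overlapped at both probes.

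Psg22, whose probe is the nearest in sequence to that of Psg19, did not separate the genotypes. Its signal was 35.1, 31.2 and 28.8 in knockout testes and 18.3, 34.6 and 39.5 in wild-type testes, a difference of 0.09 (interval -0.57 to 0.76, limma adjusted p = 0.933). The lowest reading was a wild-type one.

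Psg28, read by probe A_55_P2074521, gave 20.6, 20.8 and 23.5 in knockout testes and 17.3, 28.2 and 22.5 in wild-type testes, a difference of -0.06 (interval -0.49 to 0.37, limma adjusted p = 0.933). Psg29, the only tested relative that lies beyond Psg18 when counted from Gipr, gave 15.7, 14.6 and 22.3 against 10.704, 19.1 and 16.7, a difference of 0.17 (interval -0.43 to 0.78, limma adjusted p = 0.854). Its reading of 10.704 was not well above background. Psg27 was the least precise. It read 65.8, 14.1 and 9.36 in knockout testes, the last not well above background, and 22.3, 14.9 and 18.2 in wild-type testes. Its difference of 0.16 has an interval from -1.49 to 1.80 (limma adjusted p = 0.957), which includes a difference as large as that of Psg17.

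The probes of Psg28, Psg27, Psg23, Psg21 and Psg22 all lie between those of Psg18 and Psg19. The pair with the largest differences thus flanks 5 tested relatives that did not pass, all but Psg23 with weak signal. The probes of Psg-ps1, Psg20, Psg25 and Psg26 were not well above background on any of the 6 arrays. The Psg26 probe is the nearest in sequence to the Psg17 probe. A further Psg28 probe, A_66_P100186, also lists an accession of the Psg18 probe. Its alignment start, base 475, is given under a Psg28 transcript. This probe was below the background limit on all 6 arrays, with 3.69, 1.90 and 7.69 in knockout testes and 2.52, 2.21 and 3.19 in wild-type testes. The wild-type signal of the Psg18 probe was thus not seen at this one.

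**Figure D2:**
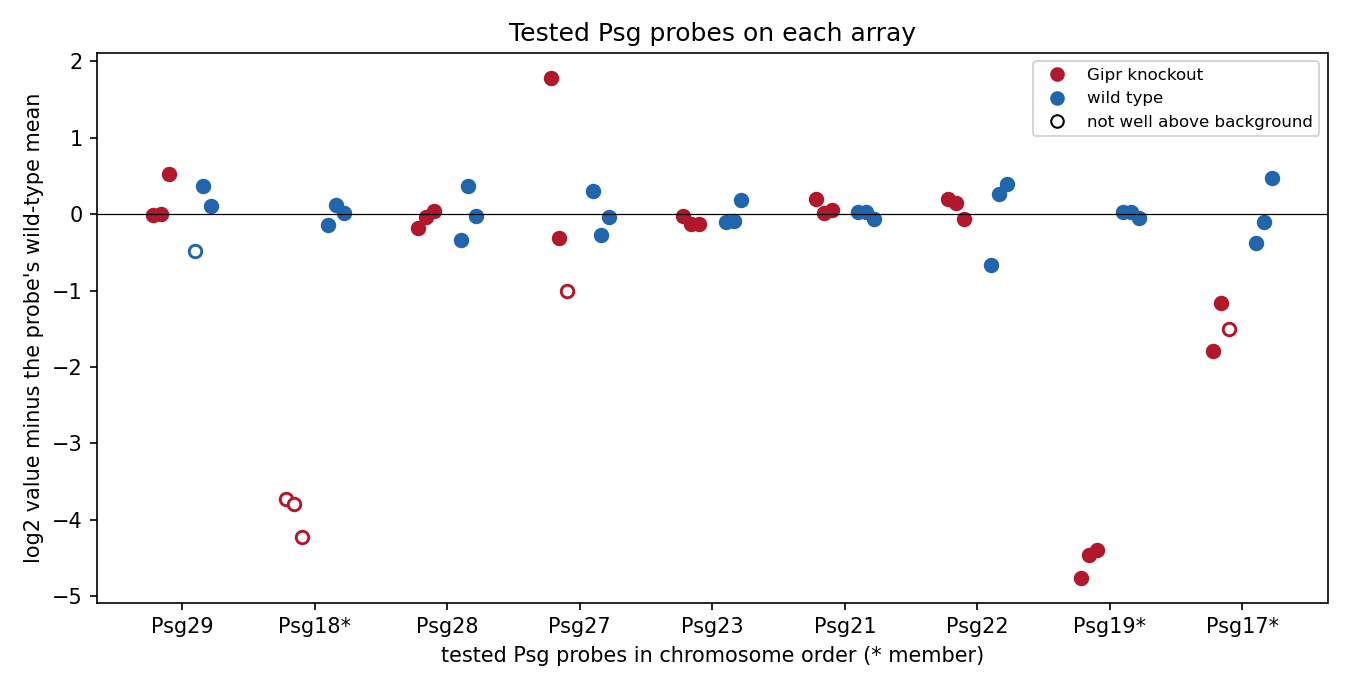
Log2 value of each tested Psg probe on each array after subtraction of that probe's wild-type mean, in chromosome order, with an asterisk at Psg18, Psg19 and Psg17 and open points not well above background. The knockout points of Psg18 and Psg19 lie between 3 and 5 units below 0 and those of Psg17 between 1 and 2 units below, while at the other 6 probes the genotypes overlap.

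Promoter sequences show how far the starts of the Psg copies are alike. RefSeq sequences of build GRCm38.p6, each running from 250 bases before to 50 bases after an annotated start, were found for Psg17 and Psg18 and for 8 further Psg genes, 11 sequences in all because Psg18 has a pair of starts. Promoters of Psg18 (chr7:18354958-18355257, minus strand) and Psg28 (chr7:18432006-18432305, minus strand) are shown with capitals at the letters without an identical partner in their alignment.
Psg18 promoter: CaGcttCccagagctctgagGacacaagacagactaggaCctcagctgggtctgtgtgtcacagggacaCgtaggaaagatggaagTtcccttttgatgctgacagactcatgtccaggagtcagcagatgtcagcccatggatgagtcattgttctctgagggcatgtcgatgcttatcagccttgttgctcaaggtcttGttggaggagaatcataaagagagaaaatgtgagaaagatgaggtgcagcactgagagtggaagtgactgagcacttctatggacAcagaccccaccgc
Psg28 promoter: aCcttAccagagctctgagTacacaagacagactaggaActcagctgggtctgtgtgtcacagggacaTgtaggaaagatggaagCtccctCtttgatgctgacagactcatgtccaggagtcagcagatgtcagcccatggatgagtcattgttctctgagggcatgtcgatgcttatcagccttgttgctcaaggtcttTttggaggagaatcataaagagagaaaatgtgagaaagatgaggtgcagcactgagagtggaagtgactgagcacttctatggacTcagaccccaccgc
They were identical at 291 of 300 bases (97%). The same Psg18 promoter and that of Psg17 (chr7:18821542-18821841, minus strand) were identical at 262 bases (87.3%), and those of Psg21 and Psg23 at 293 bases (97.7%). Other pairs had fewer identical bases than that of Psg21 and Psg23. The Psg20 sequence was identical to the others at only 28.3% to 42% of bases, although it shared a run of 58 bases with Psg23. That run lies near the start of the Psg20 sequence and near the end of the Psg23 sequence. The windows are thus shifted against each other, and the low shares of Psg20 do not show that its promoter is unlike the others. That of Psg29 was identical to the remaining sequences at 66.3% to 76%.

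A search of both strands for short motifs gave few matches in the 11 Psg sequences. TATAAA, the core of the TATA box, was in 0 of the 11 and in 13.6% of all 32851 promoters in the table. GGGCGG, bound by Sp1, was in 0 of the 11 and in 35.7% of all, and TGACGTCA, the cAMP response element, was in 0 of the 11 and in 1.79% of all. AGGTCA, a nuclear receptor motif, occurred at Psg21 and Psg23 and in 16.3% of all. CCAAT occurred at Psg23 and in 37.4% of all. None of these motifs contains another, and a missing match says only that the letters are not in this window.

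Ceacam genes were represented by 19 probes for 14 genes, of which 7 probes for 5 genes were tested. None of the 7 passed in limma's fit, while 3 had an unadjusted p under 0.05, which 7.67% of all tested probes had. Ceacam2, an adhesion molecule, read 336, 333 and 274 in knockout testes and 400, 443 and 395 in wild-type testes at probe A_55_P2386236, a log2 difference of -0.41 (SE 0.12, limma adjusted p = 0.590). The other Ceacam2 probe read 536, 582 and 472 against 638, 720 and 714, a difference of -0.40 (SE 0.11, limma adjusted p = 0.601). The genotypes were separate at both probes, by far less than at Psg17.

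Ceacam16, known from the inner ear, was the only tested Ceacam probe with the knockout higher. It read 105, 103 and 94.1 in knockout testes and 71.6, 76.4 and 89.3 in wild-type testes, a difference of 0.33 (SE 0.10, limma adjusted p = 0.618). The Ceacam20 probes (-0.24 and -0.16), the Ceacam10 probe (-0.37) and the Ceacam18 probe (-0.12) had overlapping genotypes and did not pass. Ceacam5 was above background only in knockout replicate 1, at 13.8, and the remaining Ceacam probes were not well above background on any array.

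Probes around the 4 genes were examined from 500 kb before the lowest of their probes to 500 kb after the highest, a stretch that includes Gipr. Without the 4 genes and Gipr it held 90 probes, of which 64 were tested and 0 passed in limma's fit. Small differences were frequent among these 64. An unadjusted p under 0.05 was found for 24 of them (11 with the knockout lower, 13 higher), or 37.5% against 7.67% of all tested probes. Groups that did not overlap were found for 29 (13 lower, 16 higher), or 45.3% against 13.2% of all tested probes. The directions were mixed, with a median log2 difference of 0.03.

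Of these neighbours, Ppm1n, which encodes a protein phosphatase and lies on the far side of Gipr, had the lowest p. It read 49.4, 44.6 and 47.7 in knockout testes and 33.4, 29.8 and 29.2 in wild-type testes, a difference of 0.60 (SE 0.08, limma adjusted p = 0.186). Eml2, a microtubule-associated protein also on the far side of Gipr, differed by -0.52 (SE 0.07, limma adjusted p = 0.209) and -0.44 (SE 0.08, limma adjusted p = 0.395) at its pair of probes. Both genes had separate groups, and neither passed.

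At the other end of the stretch Slc1a5, a neutral amino acid transporter, differed by -0.68 (SE 0.11, limma adjusted p = 0.348) and -0.72 (SE 0.14, limma adjusted p = 0.468), and Hif3a, a hypoxia-inducible factor, by 0.56 (SE 0.12, limma adjusted p = 0.486). The other Hif3a probes differed by 0.48, with separate groups, and by 0.03, with overlapping groups. Between the Psg probes and Gipr, 18 probes were tested of 20 on the array, among them 8 with an unadjusted p under 0.05 (3 lower, 5 higher), and 0 passed. Psg17 and Psg19 are separated from Gipr by genes such as Foxa3, Sympk and Dmpk, whose probes did not pass. These probes are among the 8. Foxa3 differed by -0.82 with overlapping groups, and Sympk by -0.35 with separate groups. The Dmpk probes differed by 0.33, with separate groups, and by 0.28, with overlapping groups.

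**Figure D3:**
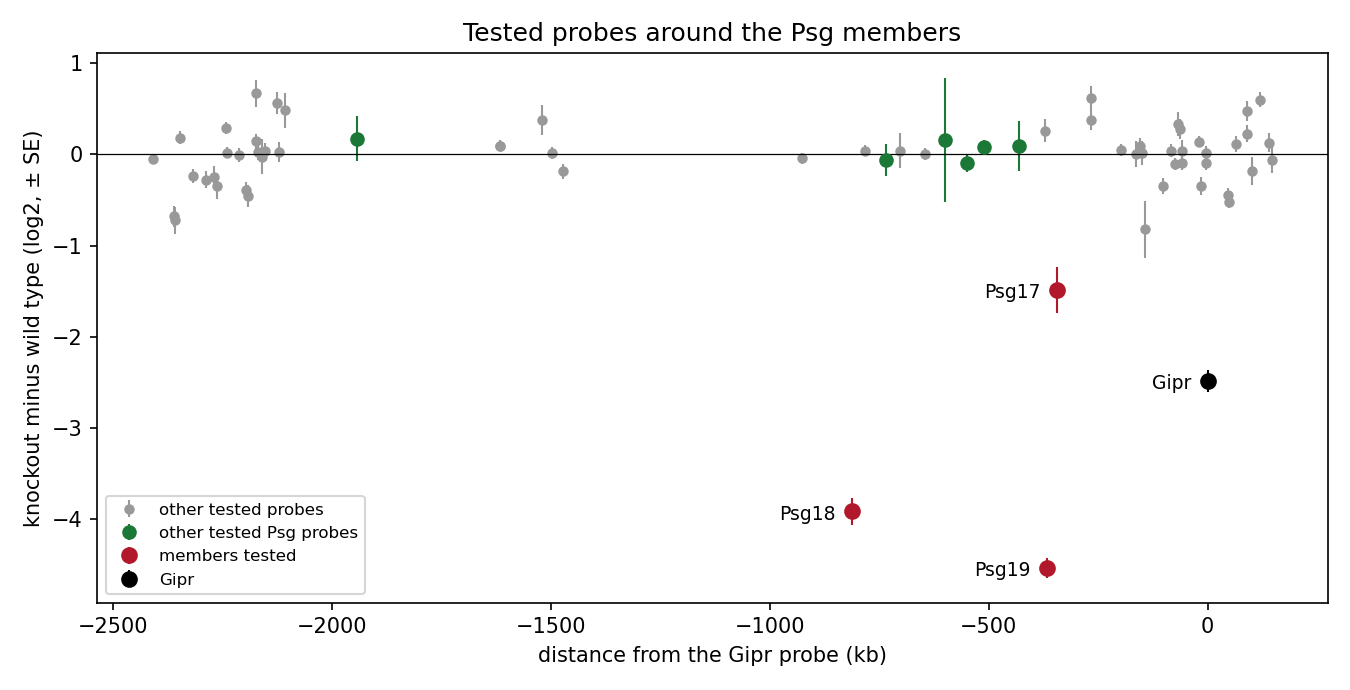
Knockout minus wild type (log2, bars 1 SE) of the tested probes around the Psg genes, against the distance of each probe from the Gipr probe in kb, negative towards Psg16. Psg19 at -4.54, Gipr at -2.49, Psg17 at -1.49 and Psg18, drawn at its fitted value although its knockout level is only a bound, lie below all other points, which scatter on both sides of 0.

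Binding partners, target cytokines and regulators of pregnancy-specific glycoproteins were taken as a list of 27 genes, read by 37 probes. Of 33 tested probes 0 passed in limma's fit, and 2 (6.06%) had an unadjusted p under 0.05, against 7.67% of all tested probes. The knockout was lower at 17 and higher at 16, with a median log2 difference of -0.02. Cd9, the receptor of Psg17, differed by 0.02.

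The lowest p of the list was that of probe A_55_P2107288 of Tgfbr2, the type II receptor of transforming growth factor beta, with 27.0, 25.5 and 21.3 in knockout testes and 32.8, 31.0 and 33.5 in wild-type testes (log2 difference -0.42, SE 0.11, limma adjusted p = 0.547). Cd81, a tetraspanin related to Cd9, read 11315, 11060 and 11784 against 13045, 12639 and 14424, a difference of -0.25 (SE 0.07, limma adjusted p = 0.581). The other Tgfbr2 probe differed by -0.12, with overlapping groups, so the pair of probes did not give the same picture. Ltbp1, which anchors latent growth factor in the matrix, differed by -0.20 (limma adjusted p = 0.655) and -0.03 at its probes, and the groups overlapped at both. Tgfbr1, the type I receptor, differed by -0.16 (limma adjusted p = 0.658) with separate groups at probe A_55_P2137211, and by 0.06 and -0.02 with overlapping groups at its other tested probes. Il6, Il10 and Ptgs2 were not well above background on any array.

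Trophoblast markers were read to see whether the cell type known for Psg expression could be recognised in these samples. Of 28 genes, 27 had probes, 10 were well above background on all 6 arrays, and 11 were below that limit on all 6. The 10 were Ascl2, Gcm1, Hand1, Plac1, Plac8, Rhox9, Synb and the placental lactogen family genes Prl2c5, Prl3b1 and Prl3d1, some of them at only 1 of their probes. The 11 were Tpbpa, Tpbpb, Elf5, Prl7a1, Prl8a9 and the placental cathepsins Cts6, Cts7, Cts8, Ctsj, Ctsq and Ctsr, while the cathepsin Ctsm was above the limit on 2 arrays of each genotype. Prl3b1 read 102, 72.7 and 69.8 on the knockout arrays and 78.3, 63.5 and 69.8 on the wild-type arrays, and a Prl3d1 probe 61.7, 53.0 and 49.4 against 60.4, 46.0 and 52.4. No marker passed in limma's fit, and Prl2c5 had the lowest p, with 25.3, 18.4 and 18.9 in knockout testes and 27.3, 25.6 and 24.7 in wild-type testes (log2 difference -0.34, limma adjusted p = 0.645). The summed signal of the list was 86643 to 106665 in knockout testes and 79303 to 93808 in wild-type testes, nearly all of it from Gcm1 probes that the files place on other chromosomes than a further Gcm1 probe. That further probe, on chromosome 9, was not well above background on any of the 6 arrays. Whether Gcm1 itself was lit is therefore not shown. Without Gcm1, 9 genes were well above background on all 6 arrays, and the sums were 2096 to 2299 and 1767 to 2165.6. The markers were thus partly lit and partly dark in both genotypes, and their part in the Psg differences was not tested.

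Markers of testis cell types were widely detected, as were some markers of other tissues. All 6 haploid germ cell markers, all 5 spermatocyte markers and all 4 spermatogonial markers were well above background on all 6 arrays, as were 5 of 6 Sertoli cell markers, the 5 Leydig cell markers with probes, and the myoid, macrophage and endothelial markers. The protamine Prm1 read between 332959 and 361986. All 3 blood markers and all 3 adipose tissue markers were also well above background on all 6 arrays. So were 2 of 3 intestinal epithelium markers and 2 of 5 epididymis markers, so detection alone does not set testis apart from other tissue. No probe of these lists, or of those for epididymis, blood, adipose tissue and intestinal epithelium, passed in limma's fit. The largest list medians were 0.52 for blood and -0.49 for Leydig cells, where Hsd17b3, an enzyme of testosterone synthesis, read 981, 1381 and 696 in knockout testes and 1575, 1523 and 1796 in wild-type testes (log2 difference -0.75, limma adjusted p = 0.645). The part of any of these cell types in the Psg differences was not tested.

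The genes with the most similar patterns were found by the root mean square distance over the 6 arrays, after subtraction of each probe's wild-type mean, among tested probes with a gene symbol. Symbols made of Gm or LOC with a number, or ending in Rik, were left out of this search. The genes found were chosen by this likeness, so their own differences are given without a test. For Psg19, read above background on every array, the probes measured in both genotypes were Map4k1, a kinase of lymphocyte signalling, at a distance of 0.937 log2 units, Gipr at 1.46 and Npas1 at 1.70. Psg18 (0.513) and Unc13a (1.503) were also among its 5 nearest, but all their knockout readings are below the background limit, so that these distances have no exact place in the order. The same 5 genes, with Psg19 in place of Psg18, were nearest to Psg18, at 0.503 to 1.64, and no order among them is given for the same reason.

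Map4k1 read 703, 614 and 627 in knockout testes and 5760, 5921 and 6306 in wild-type testes, a log2 difference of -3.23. Unc13a, which primes synaptic vesicles for release and is the only one of these that is not on chromosome 7, read 7.74, 2.17 and 3.76 in the knockout, none of them well above background, and 20.7, 32.3 and 20.5 in the wild type. Npas1, a transcription factor, read 21.8, 24.7 and 354 in knockout testes and 435, 442 and 370 in wild-type testes. Knockout replicate 3 was thus at nearly the wild-type level of Npas1, while at Psg18 and Psg19 the same sample was as low as the other 2 knockout samples.

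Psg17, with its smaller difference, had closer neighbours. The nearest were Nkpd1 (0.260), the zinc finger genes Zfp296 (0.325) and Zfp27 (0.336 and 0.374 at a pair of probes), and Zfp93 (0.388), all on chromosome 7. Nkpd1 read 234, 247 and 250 in knockout testes and 505, 577 and 656 in wild-type testes. Zfp93 read 571, 459 and 630 against 1502, 1505 and 1428. At both, as at Psg17, each wild-type reading was above each knockout reading.

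**Figure D4:**
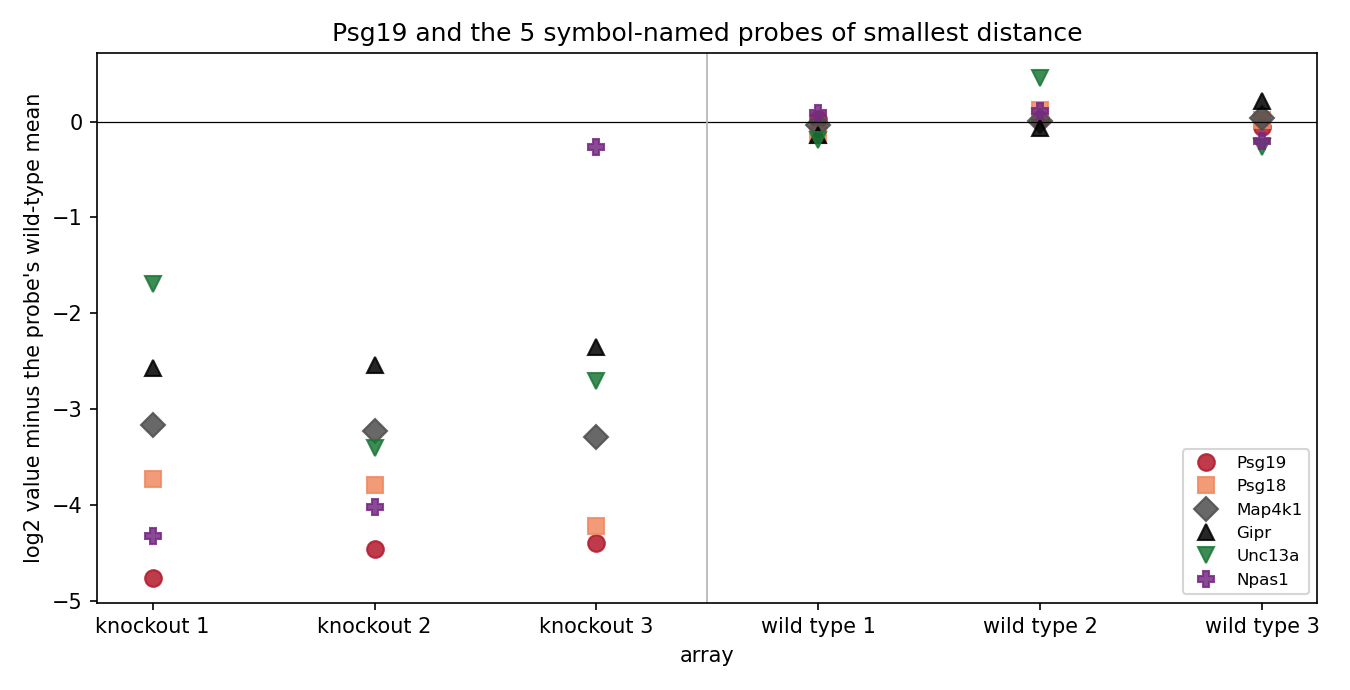
Log2 values minus each probe's wild-type mean on the 6 arrays, for Psg19 and the 5 searched probes of smallest distance from it. Psg19, Map4k1 and Gipr keep their order on the 3 knockout arrays, the knockout points of Psg18 and Unc13a rest on readings not well above background, and Npas1 is near 0 on knockout replicate 3.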

How the data were processed

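Whole-testis RNA of 6 mice was measured on Agilent 1-colour mouse arrays of design 028005, with Cy3-labelled cRNA made from 100 ng of RNA per the labels' protocols. The authors deposited scanner files from Feature Extraction 10.7.3.1, per the file headers, with a linear intensity per spot after background subtraction (the processed signal), and a value table that equals this intensity times 1 factor per array. Probe names were updated through RefSeq (GRCm38.p6).

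Log2 of the processed signal was taken, outlier spots (117 to 149 per array) were left out, spots of a probe were averaged, and each array's 75th percentile was subtracted. The 7 probes with no remaining spot were dropped. A probe was tested if well above background on all 3 arrays of a group. Genotypes were compared with limma 3.58.1 (R 4.3.3; lmFit, eBayes, two-sided, no covariate), which was checked on simulated data. Benjamini-Hochberg adjustment ran over all 38884 tested probes, with an adjusted p of 0.05 as threshold. The 3 arrays per group limit the precision, and p-values measure only the spread between these samples.

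Alternatives, listed with their effect in the closing section, include the authors' value table, normexp and leaving out each sample. Named were every probe of the 4 genes, Gipr, each tested Psg and Ceacam probe, the 6 neighbouring probes of lowest p, the 4 probes of lowest p in the partner and marker lists as far as they bear on the Psg genes, and the 5 nearest patterns per tested gene. Cd9, Foxa3, Sympk, Dmpk, Prm1, further probes of named genes, and markers named as lit or below background were named after their values were seen. The 4 genes and the lists were chosen with earlier results of these data known.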

Additional observations from a re-analysis of the deposited data

How the results depend on the processing

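The 17 alternatives, none added later, changed background correction, normalization, filter, values, variance model, array weights, outlier spots, pairing and the samples used. Probes passing numbered 18 and became 30 with normexp, 7 with no filter on dim probes, 34 with a trended and robust variance and 28 with array weights. Leaving out 1 sample gave 5 to 26 (5 without knockout replicate 1 or 2, 9 without wild-type replicate 2, 11 without wild-type replicate 3). None of the tested Psg, Ceacam and partner probes outside the 4 genes passed under any alternative. Of the neighbouring probes 1, Eml2, passed with the trended and robust variance (adjusted p = 0.0192; main 0.209). Psg19, Psg18 (fitted against a knockout level that is only a bound) and Psg17 stayed lower throughout, at -2.41, -1.33 and -0.42 with normexp, and otherwise moved by less than the spread between replicates. Without 1 sample they lay between -4.61 and -4.43, -4.01 and -3.76, and -1.68 and -1.25. Psg18 and Psg17 could not be fitted where all 6 arrays had to be above background. Gipr lay between -2.56 and -2.38 without 1 sample. Same-numbered samples did not deviate together (correlations of 0.058, -0.024 and -0.003 over probes), so the numbers, which are also slide columns, do not pair them. With the replicate block 6 probes passed (the block cannot move a difference in this balanced design). Weak signal limits Psg16, the knockout levels of Psg17, Psg18 and Psg19, and the other tested Psg probes except that of Psg23.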
